A study of Mus musculus with 8 samples.

Results

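Lactate dehydrogenase and the monocarboxylate transporters were followed in the gastrocnemius of mice whose muscle had grown under an Akt1 transgene. The 7 genes are Ldha, Ldhb, Ldhd, Slc16a1, Slc16a3, Slc16a7 and Bsg. They were taken by name from a deposited table of 30743 genes, and all 7 were found in it and passed the minimum signal for testing. The tested mice were 4 DTG mice, which carry both the 1256[3Emut]Mck-rtTA and the TRE-myrAkt1 transgene. They were set against 4 MckrtTA littermates with the Mck-rtTA transgene alone. All 8 were 4 months old and drank doxycycline at 0.5 mg/ml for 2 weeks, and all were starved overnight before the muscle was taken. The strain is labelled Myo L8, and the labels describe the treated DTG mice as male. The muscle creatine kinase promoter drives the doxycycline-dependent activator, and according to the study the transgene acts in a subset of muscles only, the gastrocnemius among them.

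Lactate dehydrogenase is a tetramer of A and B subunits that interconverts pyruvate and lactate with NADH. Ldha encodes the A or muscle subunit, which prevails in fast glycolytic fibres, and Ldhb the B or heart subunit, which prevails in slow oxidative fibres and the heart. Lactate crosses membranes with a proton through monocarboxylate transporters. MCT4, from Slc16a3, is known as the exporter of glycolytic cells, MCT1, from Slc16a1, as the main transporter of oxidative fibres and many other cells, and MCT2, from Slc16a7, as a high-affinity form. MCT1 and MCT4 need basigin, from Bsg, to reach the plasma membrane.

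Each value is called signal here. It is the number of reads that RSEM estimated for a gene, scaled by the authors so that the 75th percentile of all genes is 1000 in each library. Signal is thus relative to the other genes of a library. The study reports more total RNA per mg of gastrocnemius in DTG mice, so a lower signal need not be less transcript per mg of muscle. Estimated reads, in units of 1000000, were 46.0 to 54.0 in DTG and 45.6 to 58.6 in MckrtTA libraries. Summed signal was 1.91 times as high in MckrtTA libraries, where the 20 most abundant genes took 43.2% to 44.4% of it, against 24.8% to 35.4% in DTG libraries. Akt1 stood at 37986 to 69301 in DTG and 4047 to 5054 in MckrtTA muscle, without a split of transgene and endogenous transcripts. DTG mouse 253 stood apart from the other 3 DTG mice, with Pearson correlations of 0.948 to 0.956 over tested genes against 0.987 to 0.992 among those 3. Genes, over which these correlations run, are no independent replicates. Markers of the labelled tissue were all present. The summed signal of 9 fibre genes was 4527630 to 9934010 in DTG and 16393800 to 18507000 in MckrtTA libraries, with mouse 253 the highest of the DTG mice. Myh4 was the largest of the 9 in every library, at 1481860 to 3775400 in DTG and 7356950 to 8677140 in MckrtTA. Of the 9 fibre genes, 3 were called lower and 6, Myh4 among them, were not called. All 8 macrophage markers were called higher in DTG, with sums of 64560 to 217581 in DTG and 4224 to 5450 in MckrtTA libraries. In whole muscle, fewer cells of a type and less RNA per cell cannot be told apart.

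Of the 7 genes, 3 fell and 1 rose in DTG muscle. Slc16a3, Bsg and Ldhb were lower and Slc16a7 was higher, while Ldha, Ldhd and Slc16a1 did not pass. A call needed a Benjamini-Hochberg adjusted p under 0.005 from limma over all 15073 genes tested and a fold change of 2 or more. By that rule 30.6% of all tested genes were called, 16.0% lower and 14.6% higher. The median log2 fold change was -0.96 over the 7 genes and -0.26 over all tested genes. Each DTG mouse lay below every MckrtTA mouse for 4 of the genes and above for 1, and the groups overlapped for 2. Such separation is common here, since 62.7% of tested genes show it, 40.4% with DTG below and 22.2% with DTG above. A fold change of 2 or more without regard to p was reached by 34.9% of tested genes. Without mouse 253, Ldha joined the lower genes and 4 were lower, while over all 15073 genes 2878 were lower and 2761 higher, against 2405 and 2207 with it.

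**Figure D1:**
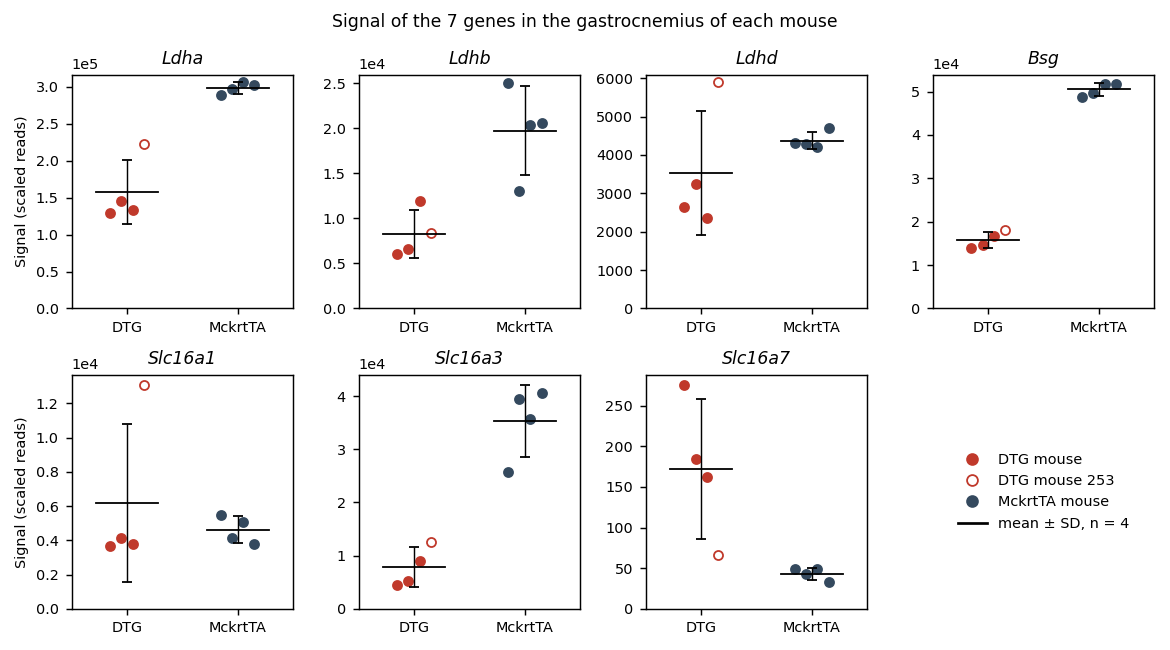
Signal (vertical axis, scaled reads, linear from 0) of each of the 7 genes in 4 DTG and 4 MckrtTA mice, with 1 point per mouse, DTG mouse 253 as an open circle, and bars for the mean ± SD. For Slc16a1, mouse 253 at 13095 lies far above the other DTG mice at 3642 to 4151, while for Bsg the DTG mice lie at 13880 to 18004 and the MckrtTA mice at 48848 to 51812.

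Ldha transcripts were the most abundant of the 7 and stood at 0.528 times the MckrtTA mean in DTG muscle on the deposited scale. Ldha (mm10 chromosome 7, 46845804 to 46855627, plus strand) had a signal of 129859, 145713, 133274 and 222210 in DTG mice 283, 282, 306 and 253, against 288294, 296569, 307018 and 302874 in MckrtTA mice 255, 280, 281 and 307. The groups did not overlap, mouse 253 lay between the other DTG mice and the controls, and the controls were close to each other. Means were 157764 ± 43501 in DTG and 298689 ± 8153 in MckrtTA muscle (SD, n = 4 mice each). By limma the log2 fold change was -0.96 with a standard error of 0.20 and adjusted p = 0.00234, which misses the fold minimum. Without mouse 253 it was -1.13 (adjusted p = 2.8e-06) and Ldha was called lower. Within lane 8 it was -1.10 and within lane 1, the lane of mouse 253, -0.81.

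As a share of each library, Ldha was nearly the same in both groups. It took 2142, 2286, 2006 and 2445 per 1000000 of the summed signal in DTG mice 283, 282, 306 and 253, against 2155, 2252, 2253 and 2240 in MckrtTA mice 255, 280, 281 and 307. On this scale of equal totals the groups overlapped and the log2 fold change was -0.01 (adjusted p = 0.946 from limma). The same scaling moved the median of all genes by 0.92, to 0.65, and relative to that median Ldha stood at -0.66, compared with -0.69 on the deposited scale. By number of reads, Ldha had 98430 to 131954 in DTG and 102081 to 131973 in MckrtTA libraries. The mouse genome holds processed pseudogenes of Ldha, and RSEM divides reads that match several transcripts by estimate.

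The B subunit gene Ldhb was lower in DTG muscle and varied more within each group than Ldha. Ldhb (chromosome 6, 142490249 to 142507943, minus strand) had a signal of 6007, 6613, 11940 and 8353 in DTG mice 283, 282, 306 and 253, against 24997, 12995, 20357 and 20630 in MckrtTA mice 255, 280, 281 and 307. DTG mouse 306 and MckrtTA mouse 280 were the closest pair across the groups, without overlap. Means were 8228 ± 2667 in DTG and 19745 ± 4977 in MckrtTA muscle (SD, n = 4 mice each). Here limma put the log2 fold change at -1.28 with a standard error of 0.25 and adjusted p = 0.00144. The call was lost without DTG mouse 282 or MckrtTA mouse 255, 281 or 307, with adjusted p = 0.00542 to 0.00578, and the log2 fold change stayed between -1.47 and -1.14 whichever mouse was left out. It was -1.67 in lane 1 and -0.88 in lane 8. The call ended under each of 3 other scalings, at -0.33 (adjusted p = 0.262) with equal totals, which sets all library sums alike, and at -0.98 with both a trimmed mean (adjusted p = 0.00712) and a median of ratios (adjusted p = 0.00676).

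Ldhd encodes the mitochondrial dehydrogenase of D-lactate, an enzyme unrelated in fold to the L-lactate dehydrogenases. Ldhd (chromosome 8, 111623785 to 111630322, minus strand) had a signal of 2632, 3229, 2358 and 5894 in DTG mice 283, 282, 306 and 253, against 4303, 4272, 4201 and 4706 in MckrtTA mice 255, 280, 281 and 307. Mouse 253 was the highest of all 8 and the other 3 DTG mice were the lowest. With all mice the log2 fold change was -0.40 (95% interval -0.96 to 0.16, adjusted p = 0.172 from limma), and without mouse 253 it was -0.68 (adjusted p = 0.000209), under the fold minimum either way. It turned to 0.54 (adjusted p = 0.0157) with equal totals, where every DTG mouse, at 35.5 to 64.8 per 1000000 of the summed signal, lay above every MckrtTA mouse, at 30.8 to 34.8. The 3′ part of Ldhd overlaps Znrf1 on the opposite strand. The kit marks strand, but the methods do not say whether counting used it.

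The balance of A to B transcripts did not differ beyond the spread between mice. Ldha over Ldhb was 21.6, 22.0, 11.2 and 26.6 in DTG mice 283, 282, 306 and 253, against 11.5, 22.8, 15.1 and 14.7 in MckrtTA mice 255, 280, 281 and 307. The groups overlapped, with DTG mouse 306 the lowest of all. The difference of mean log2 ratios was 0.32 (exact two-sided permutation test, p = 0.429, adjusted p = 0.429 over 4 ratios). It was 0.86 in lane 1 and -0.22 in lane 8, so its sign was not kept within lanes. Ldhb made up 5.15% ± 2.08 of the summed Ldha and Ldhb signal in DTG and 6.19% ± 1.55 in MckrtTA muscle (SD, n = 4 mice each), not corrected for transcript length.

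The MCT4 gene Slc16a3 fell the most of the 7, with an MckrtTA mean 4.54 times the DTG mean. Slc16a3 (chromosome 11, 120948484 to 120959000, plus strand) had a signal of 4485, 5137, 8936 and 12616 in DTG mice 283, 282, 306 and 253, against 25782, 39398, 35625 and 40622 in MckrtTA mice 255, 280, 281 and 307. Every DTG mouse was below every control, and mouse 253 was the DTG mouse nearest to them. Means were 7794 ± 3767 in DTG and 35357 ± 6728 in MckrtTA muscle (SD, n = 4 mice each). The limma fit gave -2.28 on the log2 scale with a standard error of 0.31 and adjusted p = 0.000172. Slc16a3 alone among the 7 was called lower with equal totals too, at -1.34 (adjusted p = 0.00100). Leaving out any mouse kept the call, with values of -2.56 to -2.06. It was -2.01 in lane 1, where 2 mice a group did not reach the threshold (adjusted p = 0.043), and -2.56 in lane 8.

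The MCT1 gene Slc16a1 kept to the control range or just below it in 3 DTG mice and was far above it in mouse 253. Slc16a1 (chromosome 3, 104638668 to 104658462, plus strand) had a signal of 3642, 4151, 3774 and 13095 in DTG mice 283, 282, 306 and 253, against 5501, 4121, 5067 and 3780 in MckrtTA mice 255, 280, 281 and 307. Mouse 253 thus held over 3 times the signal of any other DTG mouse, and the groups overlapped. The log2 fold change was 0.20 (95% interval -0.65 to 1.05, adjusted p = 0.657 from limma) and its sign came from mouse 253, since it was -0.25 (adjusted p = 0.105) without it. With equal totals it was 1.14 (adjusted p = 0.00610) and not called, but there the groups did not overlap, with 60.1, 65.1, 56.8 and 144 per 1000000 of the summed signal in DTG mice 283, 282, 306 and 253, against 41.1, 31.3, 37.2 and 27.95 in MckrtTA mice 255, 280, 281 and 307. The sign on that scale did not rest on mouse 253.

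Slc16a7, the MCT2 gene, rose at a low level. The gene (chromosome 10, 125227485 to 125328535, minus strand) had a signal of 276, 184, 162 and 65.7 in DTG mice 283, 282, 306 and 253, against 48.7, 42.7, 48.7 and 32.6 in MckrtTA mice 255, 280, 281 and 307. Every DTG mouse was above every control, with mouse 253 the closest to them. This rests on about 39 to 209 reads in DTG and 11 to 21 reads in MckrtTA libraries. By limma this was 1.64 on the log2 scale with a standard error of 0.37 and adjusted p = 0.00317. It stayed between 1.37 and 2.01 without any one mouse, but the call was lost without each of the 7 mice other than 253 (adjusted p = 0.00786 to 0.0113) and held without 253 (adjusted p = 2.5e-05). It was 1.32 in lane 1 and 1.95 in lane 8, and an antisense gene, Gm45604, overlaps Slc16a7.

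Bsg showed the most even fall. The gene (chromosome 10, 79704358 to 79711979, plus strand) had a signal of 13880, 14622, 16638 and 18004 in DTG mice 283, 282, 306 and 253, against 48848, 49675, 51780 and 51812 in MckrtTA mice 255, 280, 281 and 307. The 2 groups were tight and far apart, and mouse 253 differed little from the other DTG mice. Means were 15786 ± 1883 in DTG and 50529 ± 1502 in MckrtTA muscle (SD, n = 4 mice each). With limma this came to -1.69 on the log2 scale, with a standard error of 0.11 and adjusted p = 3.0e-06. Lane values were -1.67 and -1.70. With equal totals it was -0.74 (adjusted p = 5.5e-05), under the fold minimum, and no left-out mouse moved it beyond -1.75 to -1.63.

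**Figure D2:**
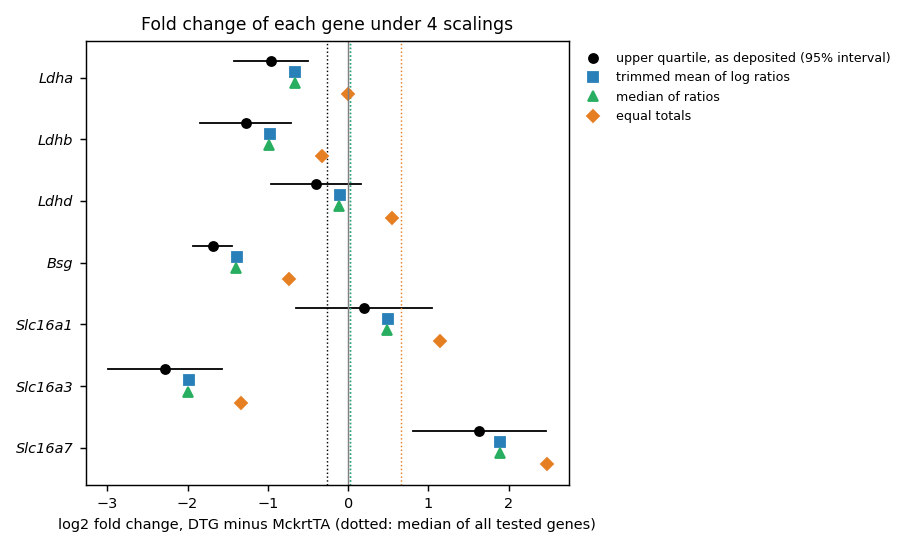
The log2 fold change of each gene (horizontal axis, DTG minus MckrtTA) under the deposited scaling, with its 95% interval as a line, and under 3 other scalings, with dotted lines at the median of all tested genes under each. Equal totals move every gene to the right by about the same amount, so that Ldha comes to -0.01 and Ldhd to 0.54, while Slc16a3 and Bsg stay below 0 and Slc16a7 above 0.

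Ratios within a library do not move with the scaling. Of 3 ratios among the transporter genes and Bsg, the groups were separate in 2 and overlapped in 1, and none had an adjusted p under 0.05. Slc16a3 over Slc16a1 was 1.23, 1.24, 2.37 and 0.963 in DTG mice 283, 282, 306 and 253, against 4.69, 9.56, 7.03 and 10.7 in MckrtTA mice 255, 280, 281 and 307. Slc16a1 over Bsg was 0.262, 0.284, 0.227 and 0.727 in these DTG mice, against 0.113, 0.083, 0.098 and 0.073 in these MckrtTA mice. The groups were separate in both ratios, each with p = 0.0286 in an exact two-sided permutation test, the smallest p that 4 against 4 mice allow, and an adjusted p = 0.0571 over the 4 ratios. The differences of mean log2 ratios were -2.48 for Slc16a3 over Slc16a1 and 1.88 for Slc16a1 over Bsg, with lane values of -2.40 and -2.57 for the first and 2.06 and 1.71 for the second. Slc16a3 over Bsg overlapped between groups, at 0.323 to 0.701 in DTG and 0.528 to 0.793 in MckrtTA mice (log2 difference -0.60, exact permutation test, p = 0.143, adjusted p = 0.190).

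**Figure D3:**
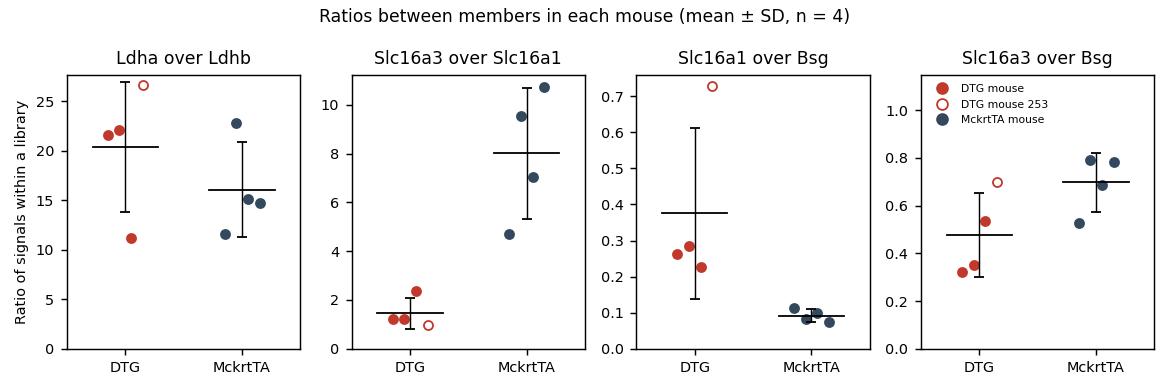
Ratios of signal between pairs of the genes within each library (vertical axis, linear from 0), with 1 point per mouse, DTG mouse 253 as an open circle and bars for the mean ± SD. The 4 DTG mice sit at 0.963 to 2.37 for Slc16a3 over Slc16a1 and the 4 MckrtTA mice at 4.69 to 10.7, while Ldha over Ldhb overlaps.

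Longer transcripts give more reads, and levels of different genes were therefore compared per kilobase of the mean length in GENCODE M21 of the transcripts listed for each gene. Ldha led in both groups with 92721 ± 25566 per kilobase in DTG and 175544 ± 4792 in MckrtTA muscle (SD, n = 4 mice each), and Bsg came second with 11328 ± 1351 in DTG and 36260 ± 1078 in MckrtTA muscle. Ldhb and Slc16a3 followed, with ranges that overlapped in MckrtTA mice (9966 to 19170 and 8601 to 13551 per kilobase) and were separate in DTG mice (4606 to 9156 and 1496 to 4209 per kilobase). The 3 transcripts of Slc16a3 run from 2272 to 4335 bases. Whether its range overlaps that of Ldhb depends, in both groups, on the length taken. In DTG mice the ranges of Slc16a3, Ldhd and Slc16a1 ran into each other, with means of 2599.9, 1552 and 1393 per kilobase, whereas in MckrtTA mice the same genes were separate at 11795, 1923 and 1043 per kilobase. Slc16a7 was last in both, at 71.0 ± 35.7 in DTG and 17.9 ± 3.14 in MckrtTA muscle per kilobase.

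The sequence before a RefSeq start of Slc16a3, Slc16a1 and Ldha is given because Slc16a3 fell while Slc16a1 did not, and because these genes are textbook targets of hypoxia-inducible or MYC factors. The lines are the 250 bases upstream of a RefSeq start, 5′ to 3′ on the gene's strand, in GRCm38.p6, whose chromosomes are those of mm10. Capitals mark ACGTG on either strand, the core of the hypoxia response element, which CACGTG, the E-box, contains on both strands.
Slc16a3, chr11:120948817-120949066, plus strand: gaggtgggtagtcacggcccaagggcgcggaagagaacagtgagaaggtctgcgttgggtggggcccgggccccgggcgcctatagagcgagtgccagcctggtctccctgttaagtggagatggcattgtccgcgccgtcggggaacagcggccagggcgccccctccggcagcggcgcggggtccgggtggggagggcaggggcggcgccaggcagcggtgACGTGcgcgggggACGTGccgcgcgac
Slc16a1, chr3:104638414-104638663, plus strand: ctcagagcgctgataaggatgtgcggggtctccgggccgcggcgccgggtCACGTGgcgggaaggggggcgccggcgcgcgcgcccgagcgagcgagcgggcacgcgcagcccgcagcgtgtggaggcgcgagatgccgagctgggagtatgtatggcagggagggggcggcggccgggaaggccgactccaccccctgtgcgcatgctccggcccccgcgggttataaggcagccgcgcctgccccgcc
Ldha, chr7:46845554-46845803, plus strand: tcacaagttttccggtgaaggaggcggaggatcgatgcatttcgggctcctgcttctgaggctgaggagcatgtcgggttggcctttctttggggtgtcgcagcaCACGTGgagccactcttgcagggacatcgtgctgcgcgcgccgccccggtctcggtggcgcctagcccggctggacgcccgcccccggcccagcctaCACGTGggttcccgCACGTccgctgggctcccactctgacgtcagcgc
The Slc16a3 window holds 2 marked stretches and no CACGTG, the Slc16a1 window holds 1, which is a CACGTG, and the Ldha window holds 3, of which 2 are CACGTG. Among 32851 windows of the same length before RefSeq starts, 16.6% hold ACGTG and 6.02% hold CACGTG on either strand. The shares over all windows were not matched for base content. The printed windows are 67.2% to 76.4% G or C, and the others of these genes 54.4% to 56.4%. A second start of Ldha and the start of Ldhb hold neither, and the Ldhd window holds 1 CACGTG. The motif AAGGTCA, bound by estrogen-related receptors, is in 4.08% of all windows and in none of the 6 of these genes. Windows were found for 5 of the 7 genes and not for Bsg and Slc16a7. The Slc16a3 window precedes a RefSeq start that lies inside the gene span given above, so it is not upstream of the first listed start. A match of letters is a description and no evidence of binding.

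The genes closest in profile to a member were found by the root mean square difference, over the 8 mice, of log2(signal + 10) minus its MckrtTA mean, among 7926 other genes with a mean signal of 1000 or more. Ldhb was closest to Bdh1, the ketone body dehydrogenase gene (0.17), Myh7, the slow myosin heavy chain gene (0.19), and Idh2, a mitochondrial isocitrate dehydrogenase gene (0.20). Myh7 had a signal of 9860, 11428, 21179 and 17060 in DTG mice 283, 282, 306 and 253, against 47515, 17617, 41125 and 32921 in MckrtTA mice 255, 280, 281 and 307. The DTG mouse highest in Ldhb, 306, was also the highest in Myh7, and the MckrtTA mouse lowest in Ldhb, 280, was the lowest in Myh7. Myh7 was picked for its likeness to Ldhb over these same mice, so the shared extremes are no separate observation. Myh7 itself was not called, at -1.20 (adjusted p = 0.0102 from limma), whereas Bdh1 and Idh2 were called lower. The part of fibre content in the Ldhb values was not tested.

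Slc16a3 was closest to Klf9 (0.16), a transcription factor gene, Pygm (0.19), the muscle glycogen phosphorylase gene, and Ppp1r1a (0.20), a phosphatase inhibitor gene. Pygm stood at 261257 ± 129011 in DTG and 1123980 ± 98340 in MckrtTA muscle (SD, n = 4 mice each). Slc16a1 was closest to Sel1l3 (0.16), Ano6 (0.21) and Ip6k3 (0.21), each with its highest value in mouse 253 and none called. Ldha was closest to Chchd1, Gabarapl2 and Map2k4 (0.035 to 0.041) and Bsg to Tmem64, Gm6710 and Tor1aip1 (0.052 to 0.058). These are descriptions of likeness over 8 libraries and carry no test.

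**Figure D4:**
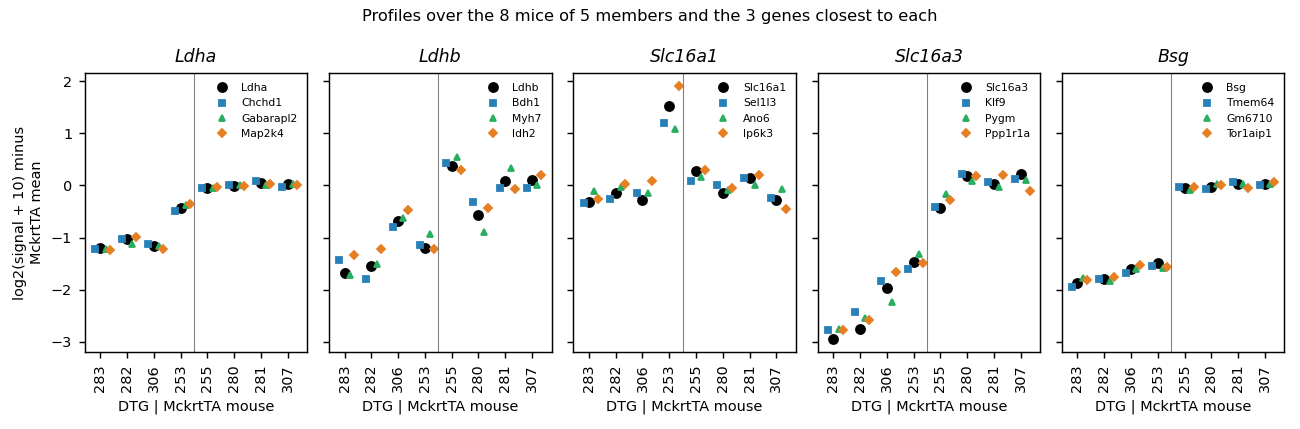
Profiles of 5 members (black circles) and the 3 genes closest to each over the 8 mice, with DTG mice left of the line and MckrtTA mice right of it, as log2(signal + 10) minus the MckrtTA mean. The Slc16a1 panel shows mouse 253 alone above 0 by more than 1, and the Ldhb panel shows the spread among MckrtTA mice that Bdh1, Myh7 and Idh2 share.

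Other genes of lactate and pyruvate handling were counted in 7 lists, with 46 of 55 listed genes tested, of which 21 were lower, 6 were higher and 19 were not called. With equal totals 10 were higher and 4 lower. Over all 15073 tested genes 16.0% were lower and 14.6% higher, and with equal totals 302 were lower and 4649 higher. Beside the transporters above, 8 of 13 other genes of the SLC16 and sodium-coupled families were tested, with 1 lower and 2 higher. Slc16a10, which carries aromatic amino acids, fell by 1.71 on the log2 scale (adjusted p = 2.3e-05 from limma), and was at -0.76 and not called with equal totals. Slc16a6, whose zebrafish counterpart exports ketone bodies from liver, rose by 2.22 (adjusted p = 0.000157). Slc16a6 was 2937, 3025, 2563 and 7307 in DTG mice 283, 282, 306 and 253, against 812, 604, 797 and 857 in MckrtTA mice 255, 280, 281 and 307, so that mouse 253 was again the highest.

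Embigin and neuroplastin are relatives of basigin that also escort transporters, and embigin is the known partner of MCT2. Emb rose, with 2328, 2024, 1599 and 1546 in DTG mice 283, 282, 306 and 253, against 244, 285, 169 and 208 in MckrtTA mice 255, 280, 281 and 307. All DTG mice were several times above all controls, and mouse 253 was close to 306. By limma Emb rose by 3.00 on the log2 scale with a standard error of 0.19 and adjusted p = 3.0e-06, and with equal totals it was 3.93. Nptn was at -0.24 (adjusted p = 0.0231) and not called. The macrophage markers given above were higher in the same 4 DTG libraries as Emb and Slc16a7, and mouse 253, with the lowest macrophage sum of the 4, was the lowest of them in both genes. Mouse 253 was also the lowest DTG mouse in the sums of 4 other lists with genes called higher, and each of these sums was higher in every DTG than in every MckrtTA library. They were fibroblast genes (153300 to 767664 in DTG and 86398 to 109315 in MckrtTA libraries), myoblast genes (13100.5 to 57466 in DTG and 2065 to 2538 in MckrtTA), T cell genes (47.2 to 510.0 in DTG and 8.90 to 37.1 in MckrtTA) and genes of dividing cells (1980.4 to 10670 in DTG and 55.7 to 162 in MckrtTA). Single genes of these lists did not all follow the sums. Mouse 253 had 939 for Myh3, the lowest of the DTG mice, but 5699 for Myod1 and 10023 for the macrophage gene Itgam, the highest. Pax7 and Myf5 were not called. Dcn, of the fibroblast list, had means of 34557 in DTG and 50064 in MckrtTA muscle and was not called. The part of any of these cells in the Emb or Slc16a7 values was not tested.

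Most genes of a list covering the making of pyruvate, its carriage into the mitochondrion and its use, cytosolic enzymes included, were lower. Of 14 tested, 10 fell, 1 rose and 3 were not called, with a median log2 fold change of -1.24 against -0.26 over all genes. The 3 with the smallest adjusted p were Pcx, which makes oxaloacetate from pyruvate (-2.19), Dlat of the pyruvate dehydrogenase complex (-1.10) and Me3, a mitochondrial malic enzyme gene (-2.10). Of genes named after their values were seen, both subunits of the mitochondrial pyruvate carrier fell, Mpc1 to 12005 ± 3847 in DTG against 36164 ± 1909 in MckrtTA and Mpc2 to 6089 ± 1558 in DTG against 16832 ± 436 in MckrtTA muscle (SD, n = 4 mice each), and Me2 alone rose, by 1.29. With equal totals 3 of these were lower and 1 higher, and the median was -0.29. Pkm, the muscle pyruvate kinase gene, also named after its values were seen, had -0.85 (adjusted p = 0.0158) and was not called.

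NADH shuttles carry reducing equivalents of glycolysis into mitochondria and so share the cytosolic NADH pool with lactate dehydrogenase. Of 10 such genes tested, 5 fell and 5 were not called, with a median of -1.01 against -0.26 over all genes. With equal totals 1 was lower and 1 higher, and the median was -0.07 against 0.65 over all genes. The steepest fall was that of Gpd2, the mitochondrial glycerol phosphate dehydrogenase gene, with 3607, 4230, 4447 and 9511 in DTG mice 283, 282, 306 and 253, against 26550, 27886, 34414 and 30344 in MckrtTA mice 255, 280, 281 and 307. It stood at -2.55 on the log2 scale, with a standard error of 0.27 and adjusted p = 3.7e-05 from limma, and stayed called with equal totals, at -1.61. The aspartate-glutamate carrier gene Slc25a12 had -1.71, the cytosolic partner Gpd1 -1.69, the mitochondrial malate dehydrogenase gene Mdh2 -1.26 and the oxoglutarate carrier gene Slc25a11 -1.05, and these 4 were not called with equal totals. The other aspartate-glutamate carrier gene, Slc25a13, named after its values were seen, stood at 1.19 (adjusted p = 0.0125), not called on the deposited scale and called higher with equal totals.

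Of the glyoxalases, which turn methylglyoxal into D-lactate, Glo1 fell by 1.27 on the log2 scale (adjusted p = 5.0e-05 from limma) and Hagh, at -0.76, was under the fold minimum. With equal totals Glo1 was at -0.33 and not called, and Hagh turned to 0.19. Among 9 genes for the lactate receptor and factors known to act on lactate dehydrogenase or transporter genes, 4 fell and 2 rose. The coactivator gene Ppargc1a and the nuclear receptor gene Esrra, known for oxidative programmes, fell by 1.75 (adjusted p = 2.8e-05) and 1.39 (adjusted p = 5.8e-06), and Myc rose by 1.76 (adjusted p = 1.8e-05). Of those named after their values were seen, Hif1a, the other gene that rose, had 1.09 (adjusted p = 0.000157), while Epas1, which encodes a related hypoxia-inducible factor, fell by 1.18. Esrrg, also named after its values were seen, fell by 1.43 (adjusted p = 9.5e-05 from limma). With equal totals Ppargc1a was -0.80, Esrra -0.44, Esrrg -0.48 and Epas1 -0.23, none called, and Myc and Hif1a were called higher at 2.69 and 2.04. Ppargc1b, also named after its values were seen, stood at 0.38 (adjusted p = 0.0249 from limma) and was not called. With equal totals Ppargc1b was called higher, at 1.31. The receptor gene Hcar1, listed as Gpr81, was near the minimum signal and stood at 0.02 (adjusted p = 0.98).

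Of the other lactate dehydrogenase genes, the testis gene Ldhc was listed at 0 in all 8 libraries and Ldhal6b had 0 to 19.8. Uevld, which carries a lactate dehydrogenase domain, was at -0.54 (adjusted p = 0.00132 from limma) and under the fold minimum. It turned to 0.40 with equal totals.

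**Figure D5:**
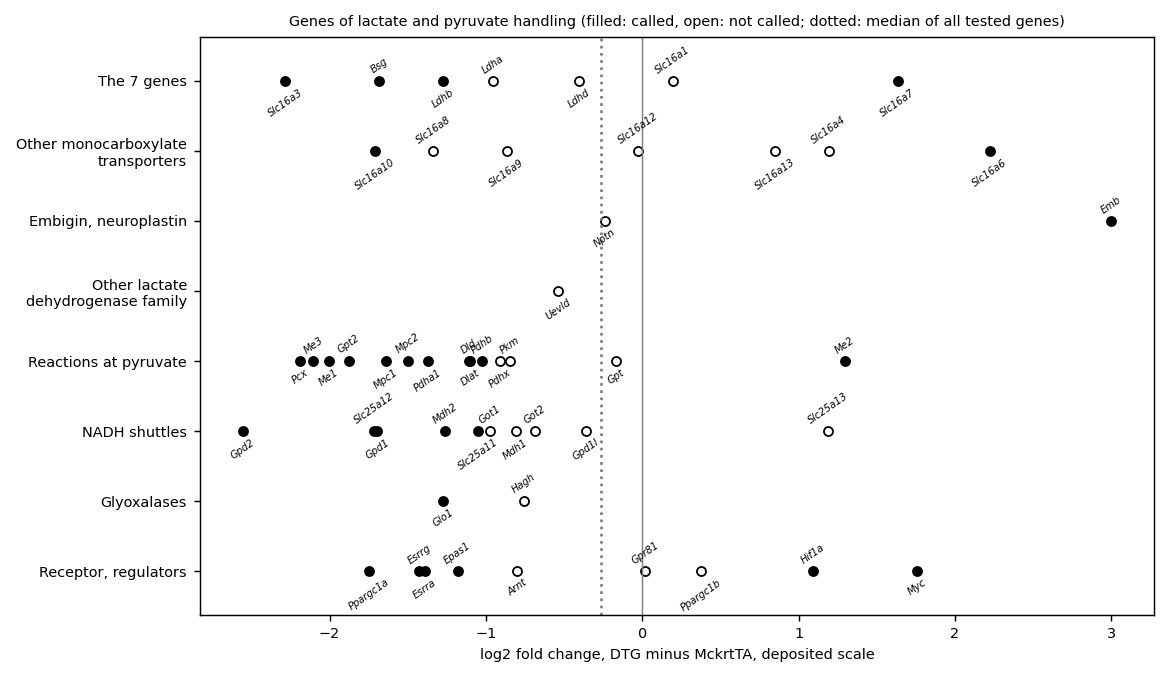
The log2 fold change (horizontal axis, DTG minus MckrtTA, deposited scale) of the tested genes in each list, with 1 called transporter gene left out, filled where called and open where not, with a dotted line at the median of all tested genes, -0.26. Genes for reactions at pyruvate and for NADH shuttles lie mostly left of that line, and Emb has the highest value at 3.00.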

How the data were processed

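PolyA-selected RNA of the gastrocnemius of 8 mice was sequenced as paired 50 bp reads, 1 library per mouse, on 2 lanes with 2 mice of each group per lane. The authors mapped reads to mm10 transcripts with RSEM (the labels also name BWA) and deposited signal values, which are estimated reads scaled by the upper quartile of each library. Whole reads were not recovered, as low values came within 0.1 of one in 86.8% to 88.1% of cases, so no count test was run. Genes that reached a signal of 25 in at least 3 libraries were tested on log2(signal + 10) with limma 3.58.1 in R 4.3.3, with a variance trend and no covariate. The thresholds for a call, 0.005 for adjusted p and a 2-fold change, are those the study used on its counts. Fold changes on this scale understate those of low genes. The members, gene lists and tests were chosen with earlier results of these data known. Named list genes are the 3 with the smallest adjusted p per list, or all called genes where 5 or fewer were called, and others are marked as named after their values were seen. The values of 1 gene that this rule names are not reported here. Transcript lengths come from GENCODE M21 and upstream sequences from RefSeq. Groups come from the labelled genotype. Alternatives changed the pseudocount, minimum, scaling, moderation, lanes, thresholds and mice. The test was run on simulated data first. The other deposited sheets were not used, and 0 columns of libraries were left out. Nothing in the labels says how littermates were paired.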

Additional observations from a re-analysis of the deposited data

Results flagged for a closer look

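In 22 groups of 4 mice, 1 for each gene and ratio in each genotype, a mouse far from the other 3 was looked for by its gap to the nearest mouse relative to the range of the group. Chance alone flags about 5% of such groups. It was found in 2, both in DTG mouse 253, and the 2 share the Slc16a1 signal. The Slc16a1 signal of mouse 253 was 13095, against 3642 to 4151 in the other DTG mice. The ratio of Slc16a1 over Bsg in mouse 253 was 0.727, against 0.227 to 0.284 in the other DTG mice.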

How the results depend on the processing

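Slc16a3, Bsg, Ldhb and Slc16a7 kept their direction in every alternative tried, and Ldha too, though at -0.01 with equal totals. With equal totals Ldhb was at -0.33, Bsg at -0.74 and Ldhd turned to 0.54, 1 member was lower, calls over all genes were 4649 higher and 302 lower against 2207 and 2405, and list genes 10 higher and 4 lower against 6 and 21. A trimmed mean left Ldhb at -0.98, not called, and 1270 genes lower, and a median of ratios left it at -0.98, not called, and 1281 lower, so that higher genes were 47.9% of calls as deposited, 93.9% with equal totals and 68.2% and 68.0% with these. Slc16a7 kept 1.64 but lost its call with any signal above 0 (adjusted p = 0.00520) or the lane as a covariate (adjusted p = 0.00565), both leaving 0 members higher. In lane 1 alone, which holds mouse 253, 54 genes were higher and 4 lower, with 0 list genes and 0 members either way, and values of -1.67 for Ldhb, -2.01 for Slc16a3, 1.32 for Slc16a7 and -1.67 for Bsg. In lane 8 Ldha was called at -1.10 and Ldhb was not at -0.88. Ldha over Ldhb was 0.86 in lane 1 and -0.22 in lane 8. An adjusted p under 0.05 with no fold minimum gave 3858 genes higher and 6645 lower. Leaving out each mouse gave -1.13 to -0.88 for Ldha, -1.47 to -1.14 for Ldhb, -0.25 to 0.37 for Slc16a1, 1.37 to 2.01 for Slc16a7, and 0 to 1 members higher. The cause of these changes was not tested. Pseudocounts of 1 and 50, a minimum of 100 and moderation without a trend changed no member's call. No paired analysis was possible because the labels give no numbers shared between groups. The 11 to 21 reads behind Slc16a7 in MckrtTA libraries limit its precision.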
